A study of Homo sapiens with 42 samples.

Results

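Cytosolic ribosomal protein genes encode the proteins that assemble with ribosomal RNA into the cytosolic ribosome. Splicing events of these genes were taken from 8 tables of percent spliced in (PSI) by gene symbol: RPL or RPS followed by a number and at most one suffix letter A, L, X or Y, and RPSA, RPLP0, RPLP1 and RPLP2. RPS6 kinase genes, mitochondrial ribosomal protein genes and pseudogenes were left out. This gave 710 of 78665 events and 79 of 11162 genes, 47 of the large and 32 of the small subunit, here called RP genes. The GENCODE 29 annotation of GRCh38 holds 81 genes that meet the same rule. PSI is the percentage of a gene's informative reads that include an exon, intron or splice site. These tables therefore describe which form of an RNA was present and not how much of it there was.

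The libraries were strand-specific mRNA libraries of the human multiple myeloma lines MM.1S and INA-6, 42 libraries in 14 groups of 3. In the first design, MM.1S or INA-6 cells kept without interleukin-6 (IL-6) were compared with cells given IL-6 for 24 hours. In the second, cells expressing Cas9 received by lentivirus a guide RNA against EGFP as the control (sgEGFP), or against POU2AF1 or ELL2 in both lines, or against SRSF1 or HNRNPL in MM.1S, and were selected in puromycin. All guide groups, controls included, also had IL-6, for 24 hours in MM.1S; the INA-6 guide labels give no time. POU2AF1 is a B-lineage transcription coactivator, ELL2 is a transcription elongation factor that acts on immunoglobulin RNA processing in plasma cells, SRSF1 is an SR protein that promotes exon inclusion, and HNRNPL is a splicing regulator that binds CA-rich RNA. INA-6 cells are known to depend on IL-6 for growth. The labels do not say whether guide cells were pools or clones, whether a group's 3 libraries are separate cultures, or which library each of 2 sequencing providers made. All p-values therefore measure the spread between libraries, which may be technical, and a provider batch could not be told apart from the groups.

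The INA-6 sgPOU2AF1 and sgELL2 comparisons share their sgEGFP libraries, with identical control PSI in 58 of 58 RP events listed in both. The MM.1S sgSRSF1 and sgHNRNPL comparisons share theirs in 544 of 544. MM.1S sgPOU2AF1 and sgELL2 have controls of their own. Some value columns of the INA-6 guide tables are headed MM.1S, and the mean PSI of their controls gave Pearson coefficients of 0.995 and 0.997 against the IL-6-treated INA-6 libraries (over 3815 and 3448 events), and of 0.954 and 0.962 against the IL-6-treated MM.1S libraries (827 and 403 events). These describe events of shared libraries and were not tested. At the targeted genes, the event with the largest change in POU2AF1 fell by 19.27 points in MM.1S and fell by 8.48 points in INA-6, and that in ELL2 was 61.2% against 91.2% in controls in MM.1S and 59.6% against 94.5% in INA-6. SRSF1 had 0 events with p under 0.05 and HNRNPL had 1, a rise of 0.23 points, and since the tables hold no expression level the loss of either could not be checked. Of the plasma cell markers, 9 of 9 had splicing events listed, and of 4 T cell and monocyte markers 0 had one.

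Ribosomal protein messages are among the most abundant in dividing cells, and their introns are usually short and removed efficiently. Several of these proteins, RPL3, RPL12 and RPS13 among them, are known to bind or influence their own transcripts so that excess protein favours an unproductive splice form. Many RP introns carry small nucleolar RNAs (snoRNAs), which guide chemical modification of ribosomal RNA, and plasma cells and myeloma cells need a large ribosome supply for antibody secretion. RP genes also have many processed pseudogenes with near-identical exons. The treatment of reads that match several places is not given in these sources, and RP values are uncertain to that extent.

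The sequences below belong to the exons that the results turn on, read from GENCODE 29 transcripts on GRCh38 and written 5′ to 3′ on the sense strand. For RPS24 the capitals mark the stop codon, which moves when the 22-nucleotide exon is included.
RPS24 end of the preceding exon, chr10:78037275-78037304, plus strand: gcaaaggccaatgttggtgctggcaaaaag
RPS24 22-nucleotide exon, chr10:78040204-78040225, plus strand: TGAgctggagattggatcacag
RPS24 form with 3 further bases, chr10:78040201-78040225, plus strand: cagTGAgctggagattggatcacag
RPS24 last exon to its stop codon, chr10:78040615-78040626, plus strand: ccgaaggagTAA
With the 22-nucleotide exon the reading frame ends at that exon's first codon, and without it 3 further codons are read from the last exon before a stop. The exon held the letters GGAGA, 1 of 2 motifs looked for as SRSF1-like, on the sense strand; 8 of 137 skipped exons of like length (5.84%) hold them. The other SRSF1-like motif, GAAGAA, was not there, and neither was the motif looked for as HNRNPL-like, which reads ACACA. They occur in 5.11% and 1.46% of the same 137 exons. In the next pair the capitals mark the RPLP2 start codon, and the RPS13 exon is shown because its 49 bases do not divide by 3 (remainder 1), so that leaving it out shifts the frame.
RPLP2 coding bases of the second exon, chr11:810235-810357, plus strand: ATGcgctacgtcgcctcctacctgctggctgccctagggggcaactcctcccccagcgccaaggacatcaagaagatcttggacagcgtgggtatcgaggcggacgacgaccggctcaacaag
RPS13 49-nucleotide exon, chr11:17077429-17077477, minus strand: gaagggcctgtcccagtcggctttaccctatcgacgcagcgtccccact
Neither of these exons held any of the 3 motifs, which occur in 8.71% to 19.7% of exons of like length to the first and in 5.64% to 9.64% of those like the second. A match or its absence says only that these letters are or are not in the window.

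Most RP splicing events in these cells sat close to 0% PSI. In the sgEGFP controls of the sgSRSF1 comparison the median PSI of 579 RP events was 0.120%, against 5.14% over 62987 events of all genes. Of the RP events, 482 (83.2%) were under 1%, against 30.2% of all events, and 23 lay between 10% and 90%. RP retained introns had a median of 0.117% against 1.24% for all retained introns. The spread between control libraries was also smaller. Among events between 1% and 99%, the median SD was 0.289 points for 95 RP events and 2.29 points for all. The 2 sets were not matched for PSI level, on which the SD of a percentage depends. Between 10% and 90% lay 3.97% of RP events and 33.0% of all events. The read depth behind each PSI value is unknown, so no counting interval could be given.

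With the study's p-value and a minimum of 10 points set here, RP events that moved by a large amount were nearly absent. In the sgSRSF1 controls 83.2% of RP events were under 1% PSI, against 30.2% of all events. Most RP events thus had no room to fall by that much. The p-value column of the authors' deposited table is headed as adjusted, but recomputation from the listed PSI gave an unadjusted two-sided p for unequal variances in 100% of events, to within 1%. An event is called here at p under 0.05 with a difference of at least 10 points. In MM.1S with IL-6, 0 of 164 RP events were called, against 13.9% of all events listed with a p-value in that table. In INA-6 with IL-6 the count was 0 of 80 (background 12.2%), in MM.1S sgPOU2AF1 0 of 67 (10.2%), in INA-6 sgPOU2AF1 1 of 235 (10.1%), in MM.1S sgELL2 0 of 67 (11%) and in INA-6 sgELL2 0 of 92 (10.2%). In the 2 complete tables it was 0 of 570 for sgSRSF1 (5.74%) and 0 of 587 for sgHNRNPL (1.81%). The 1 called event was an exon of RPL17, described below. The exact permutation test of 3 against 3 libraries cannot go below p = 0.1.

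At p under 0.05 without a minimum difference, many more RP events were listed, and nearly all were small. In MM.1S with IL-6, 138 of 625 RP events measurable in a complete MM.1S table had p under 0.05, or 22.1%, against 7.39% of all such events. The share was 9.28% against 5.21% in INA-6 with IL-6 and 8.8% against 5.15% in MM.1S sgPOU2AF1. In INA-6 sgPOU2AF1 it was 30.4% (190 of 625) against 7.89%, in MM.1S sgELL2 9.28% against 3.42%, and in INA-6 sgELL2 12.8% against 3.8%. In the sgSRSF1 table the RP share, 13% of 570, was below the 16.4% of all events, and in the sgHNRNPL table it was 11.9% of 587 against 7.33%. The INA-6 shares also use events measurable in MM.1S. How many of these were measurable in INA-6 is unknown, so the INA-6 shares, those of all events included, may be too low. Below, rose and fell are used of events with this unadjusted p under 0.05. In all 8 comparisons every RP event with p under 0.05 also had groups that did not overlap. This held for 164 of 164 in MM.1S with IL-6 and 235 of 235 in INA-6 sgPOU2AF1. Statements below that the groups of a comparison did not overlap therefore add nothing to the p-value. PSI of a library is an average over its cells, so a small shift in every cell and a large shift in a few cannot be told apart. The median absolute difference of the RP events with p under 0.05 ranged from 0.0539 points (INA-6 with IL-6) to 0.362 points (MM.1S sgELL2), against 2.60 to 6.63 points over all genes. In INA-6 sgPOU2AF1, 221 of 235 RP events differed by under 1 point. The low spread of RP events given above goes along with these shares, and its part in them was not tested.

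**Figure D1:**
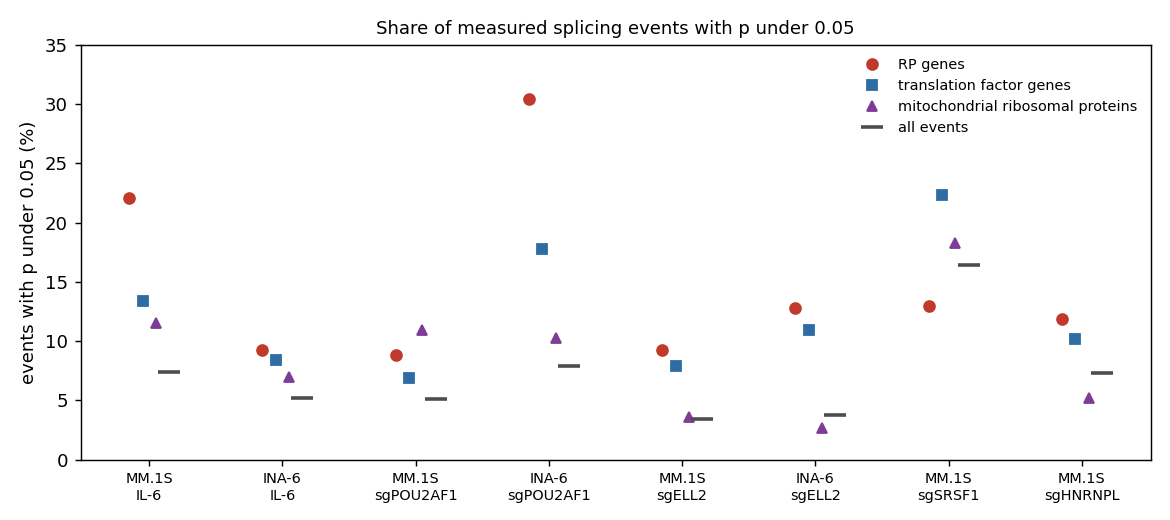
Share of splicing events with p under 0.05 in each of the 8 comparisons (y axis, percent), for RP genes (circles), other translation genes (squares), mitochondrial ribosomal protein genes (triangles) and all genes (dashes). Shares are of events with a p-value in a complete MM.1S table, also for INA-6. For sgSRSF1 and sgHNRNPL they are of events with a p-value in their own table. The RP share is 30.4% in INA-6 sgPOU2AF1 and 22.1% in MM.1S with IL-6, and in the sgSRSF1 comparison it lies below the 16.4% of all events.

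Other genes of the translation machinery had lower shares than RP genes in MM.1S with IL-6 and INA-6 sgPOU2AF1, but not in every comparison. A list of 15 elongation, initiation and growth-regulated genes whose messages, like those of RP genes, begin with a terminal oligopyrimidine tract (EEF1A1, EEF2, PABPC1, TPT1, NPM1, RACK1 and others) had 13.4% of 202 events at p under 0.05 in MM.1S with IL-6 and 17.8% in INA-6 sgPOU2AF1, next to 7.39% and 7.89% of all events. Mitochondrial ribosomal protein genes had 11.5% and 10.3% of 331 events. The 20 ribosome biogenesis genes had 6.62% of 136 events in MM.1S with IL-6, below all events, and 11% in INA-6 sgPOU2AF1. In MM.1S sgPOU2AF1 the mitochondrial genes had 10.9% against 8.8% for RP genes, and in sgSRSF1 cells the terminal oligopyrimidine genes had 22.3% against 13% for RP genes and 16.4% for all events. In INA-6 sgELL2 the mitochondrial genes were at 2.72%, below the 3.8% of all events.

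Retained introns made up the largest share of the listed RP events, as they did of the measurable RP events (335 of 625). In several comparisons they rose nearly together. In MM.1S with IL-6, 97 RP introns of 98 with p under 0.05 were higher and 1 was lower (99% higher, against 62.1% of all retained introns with p under 0.05). They came from 47 genes, 46 of them with higher introns. In INA-6 sgPOU2AF1, 197 of 201 were higher (98%, against 91.9% of all), from 60 genes, and in INA-6 sgELL2 55 of 56 were higher (98.2%, against 57.0%), from 26 genes. These are 23.0%, 47.2% and 13.4% of the 335 measurable RP introns, against 6.24%, 15.6% and 4.78% of all introns. In the other 5 comparisons fewer of the listed RP introns were higher. The share was above the background in INA-6 with IL-6 (76.5% of 51, background 58.2%), MM.1S sgELL2 (75.0% of 36, 47.7%) and sgHNRNPL (80.6% of 31, 58.2%), and below it in MM.1S sgPOU2AF1 (69.2% of 39, 73.4%) and sgSRSF1 (73.7% of 38, 77.4%).

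The rises were small in points and moderate as ratios. In MM.1S the median PSI of the listed RP introns was 0.182% without and 0.274% with IL-6, a median ratio of 1.56 against 1.30 for all listed introns. In INA-6 sgPOU2AF1 it was 0.111% in controls and 0.209% with the guide, a median ratio of 1.68 against 1.72 for all, and in INA-6 sgELL2 0.311% and 0.409%, a ratio of 1.45 against 1.12. The ratios pool introns that rose and fell, so they do not compare rises alone. Of all listed introns only 62.1%, 91.9% and 57.0% were higher in these 3 comparisons. Their median control PSI was 3.54%, 1.96% and 3.45%. Of the introns higher at p under 0.05, 22 of 97, 13 of 197 and 9 of 55 in these 3 comparisons rose by at least 0.5 points. Testing the listed introns again with 1 library fewer left 54 to 59, 120 to 145 and 25 to 39 higher introns, whichever library was omitted, and such a retest can only lower the count. Introns of one gene also overlap in the tables; counting each gene once left 46, 59 and 25 genes higher and 1, 1 and 1 lower.

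**Figure D2:**
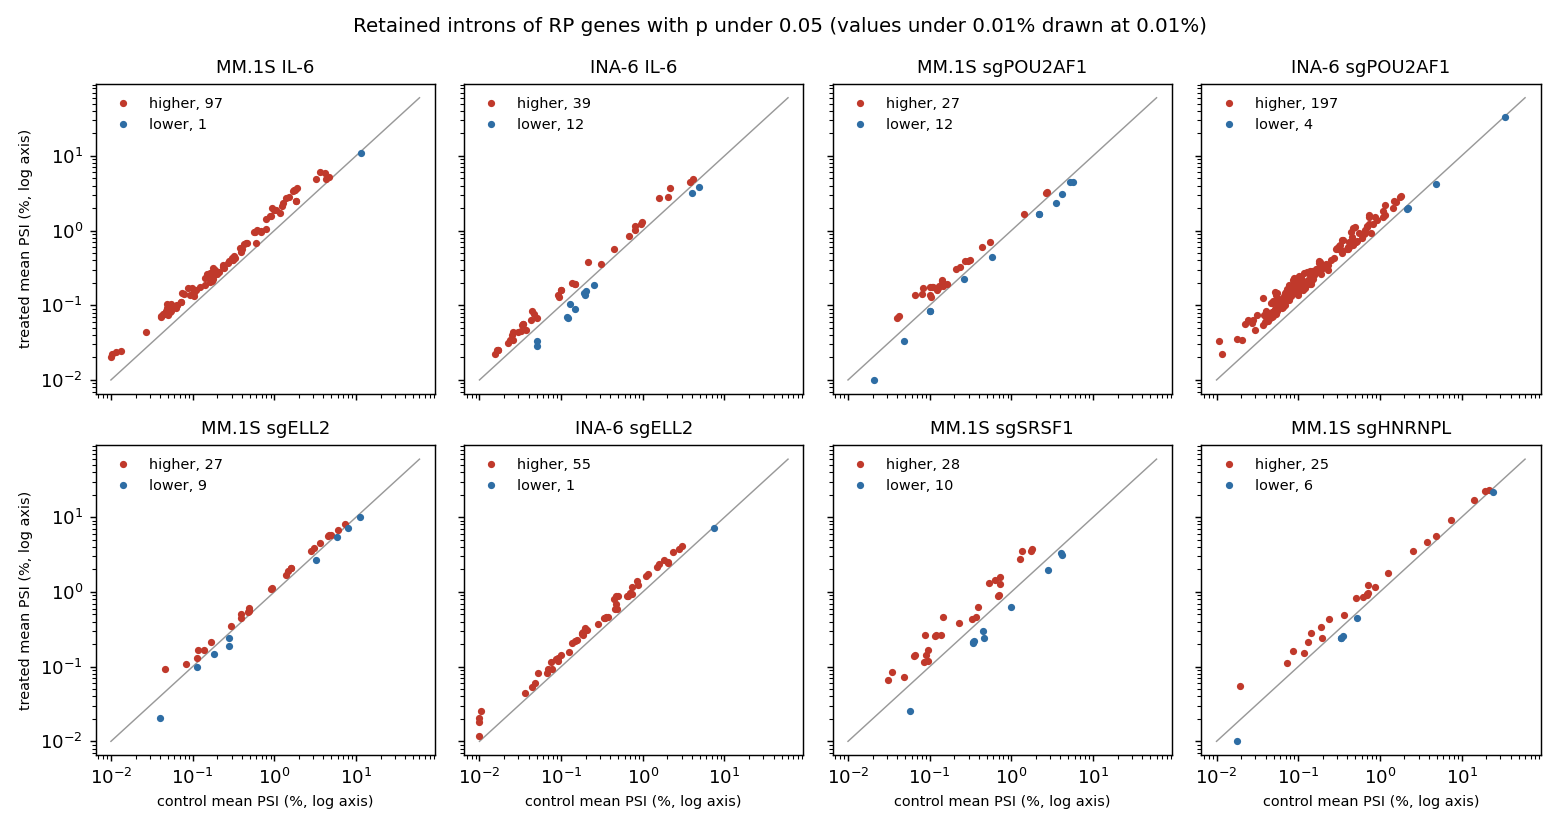
Mean PSI of each RP retained intron with p under 0.05 in control (x axis) and treated libraries (y axis), both in percent on log axes, 1 panel per comparison; the line marks equal values and colours mark introns higher or lower. In MM.1S with IL-6 97 points lie above the line and 1 below, and in INA-6 sgPOU2AF1 197 lie above and 4 below.

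The introns listed in MM.1S with IL-6 and in INA-6 sgPOU2AF1, which share no library, overlapped. Of these, 59 were in both lists, which is 60.2% of the first and 29.4% of the second, and 58 of the 59 were higher in both. Of the 77 introns of the first list that are measurable in a complete table, 46 (59.7%) were in the second, next to 47.2% of all measurable RP introns. Since 97 of 98 and 197 of 201 were higher in the separate lists, the shared direction adds nothing to them. Between the IL-6 comparisons of the 2 lines 19 introns were shared, 19.4% of the MM.1S list and 37.3% of the INA-6 list, with 16 higher in both and 3 in opposite directions. Between the sgPOU2AF1 comparisons 12 were shared and 12 were higher in both, and between the sgELL2 comparisons 15 were shared and 14 were higher in both. Each intron had to have p under 0.05 in both tables to be counted.

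Introns that hold a snoRNA were among those listed. They made up 37 of the 312 RP introns in the sgSRSF1 table. Among introns with p under 0.05 they were 19 of 98 in MM.1S with IL-6, with 19 higher, 14 of 51 in INA-6 with IL-6, with 14 higher, and 37 of 201 in INA-6 sgPOU2AF1, with 36 higher. Of 6 listed in each of 4 further comparisons, 5 were higher in MM.1S sgELL2, 6 in INA-6 sgELL2, 3 in MM.1S sgPOU2AF1 and 3 in sgSRSF1, and in sgHNRNPL cells 4 were listed and 4 were lower. Over the introns with p under 0.05 of the 28 RP genes that host a snoRNA, with or without a snoRNA inside, the split did not set them apart in one direction. In INA-6 with IL-6 the host genes had 26 introns higher and 0 lower, against 13 and 12 in the other RP genes. In MM.1S sgPOU2AF1 they had 9 and 7 against 18 and 5, and in sgHNRNPL cells 5 and 5 against 20 and 1. These differences were not tested. The large subunit genes had 130 introns higher and 4 lower and the small subunit genes 67 and 0 in INA-6 sgPOU2AF1. In MM.1S with IL-6 they had 67 and 1 against 30 and 0. The 2 subunits were less alike in INA-6 with IL-6, at 31 and 4 against 8 and 8. In MM.1S sgELL2 they were at 21 and 2 against 6 and 7. The subunit split was not tested either.

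RPS24, a small subunit protein needed for maturation of the small subunit RNA and mutated in some families with Diamond-Blackfan anaemia, had the only RP event with p under 0.05 in all 8 comparisons. This was the 22-nucleotide exon shown above. In MM.1S its PSI was 12%, 11.6% and 12.6% without IL-6 and 6.50%, 6.36% and 6.56% with IL-6. The 2 groups did not overlap, and the means of 12.1% ± 0.47 and 6.48% ± 0.10 (SD, n = 3) differ by more than the spread. In INA-6 it fell from 8.53%, 8.93% and 8.76% to 5.98%, 6.08% and 5.39%. The authors' deposited table gives p = 0.00158 for the fall by 5.60 points in MM.1S and p = 0.00112 for the fall by 2.92 points in INA-6.

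With the POU2AF1 guide in MM.1S, whose controls had IL-6, the same exon rose. Controls were at 7.13%, 6.83% and 6.81% and sgPOU2AF1 libraries at 13%, 14.2% and 13.1%. The guide group lay above MM.1S cells without IL-6, a level from another table. Such levels also differ between tables without a guide against a human gene. MM.1S with IL-6 was at a mean of 6.48%, and the sgEGFP controls of sgSRSF1 and sgHNRNPL were at 10.5%. In INA-6 the rise was from 5.91%, 6.24% and 6.22% to 6.77%, 6.81% and 7.0%, also without overlap. The authors' deposited table gives p = 0.00192 for the 6.50 points in MM.1S and p = 0.0066 for the 0.74 points in INA-6. On the log2 odds scale the change in INA-6 was smaller by 0.88 (SE 0.08), with a limma interaction adjusted p of 5.6e-05 over events listed in both tables.

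The ELL2 guide raised the exon by similar amounts in both lines. MM.1S controls were at 7.34%, 8.01% and 7.34% and sgELL2 libraries at 9.94%, 9.56% and 10.2%, a difference of 2.33 points. In INA-6 sgELL2 libraries were at 8.5%, 8.73% and 8.46%, 2.45 points above the sgEGFP libraries given above. Neither pair of groups overlapped. The difference between lines was 0.10 on the log2 odds scale (SE 0.07, limma adjusted p = 0.318), which does not show that the lines respond alike.

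The SRSF1 guide lowered the exon. The shared sgEGFP libraries were at 10.4%, 10.6% and 10.5%, sgSRSF1 at 5.77%, 5.48% and 5.69%, and sgHNRNPL at 9.26%, 9.83% and 9.82%. Both guide groups lay below the controls without overlap, by 4.88 and 0.89 points. In the complete sgSRSF1 table the fall was 0.97 on the log2 odds scale (SE 0.15, limma adjusted p = 0.0213 over 50150 events). The 14 group means ranged from 5.65% (sgSRSF1) to 13.4% (MM.1S sgPOU2AF1). Libraries of neighbouring groups in that order overlapped for 5 pairs, such as 8.74% in INA-6 without IL-6 and 8.57% in INA-6 sgELL2, or 9.89% in MM.1S sgELL2 and 9.64% in sgHNRNPL. The levels come from separate tables and were not tested across them.

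**Figure D3:**
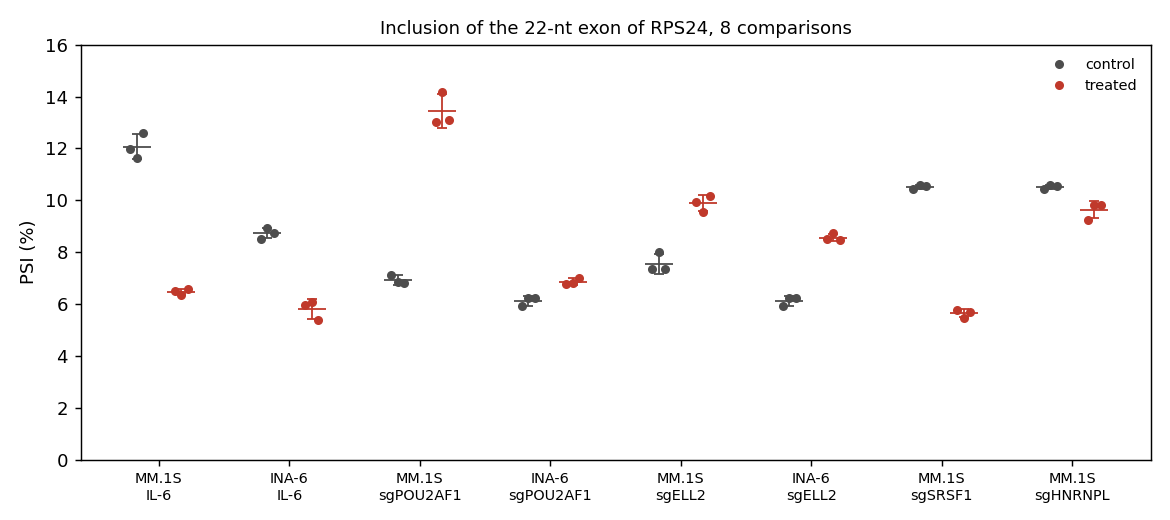
PSI of the 22-nucleotide exon of RPS24 (y axis, percent) in each library (points) of the 8 comparisons (x axis), control and treated, with the group mean and SD as bars. The treated libraries lie below the controls for both IL-6 comparisons, sgSRSF1 and sgHNRNPL, and above them for the 4 sgPOU2AF1 and sgELL2 comparisons.

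The exon is listed under several event entries, whose PSI differ because their denominators do. The entry above carries the code MXS, which the sources used here do not explain. In an entry against a different set of transcripts, MM.1S went from 6.50%, 6.31% and 6.67% to 3.43%, 3.33% and 3.34% with IL-6. A 3-nucleotide exon upstream in the same intron, chr10:78037439-78037441, moved with it, from 1.13%, 1.11% and 1.02% to 0.638%, 0.688% and 0.672% in INA-6 with IL-6 and from 0.941%, 0.985% and 1.05% to 1.43%, 1.62% and 1.40% in MM.1S sgPOU2AF1. Retention of the intron before the 22-nucleotide exon went the other way. At chr10:78037442-78040203 it rose from 1.41%, 1.17% and 1.22% to 2.80%, 3.04% and 2.56% in sgSRSF1 cells (limma adjusted p = 0.0204), and at chr10:78037983-78040203 it fell from 3.79%, 3.30% and 3.37% to 2.12%, 2.27% and 2.61% in MM.1S sgPOU2AF1. These regions overlap and are not separate observations.

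RPL17, a large subunit protein near the exit of the nascent peptide tunnel, gave the 1 called RP event. It is a 98-nucleotide exon of the 5′ leader at chr18:49491736-49491833, minus strand, annotated as untranslated in 3 transcripts. The readthrough gene RPL17-C18orf32 covers the same exon, and reads of the 2 genes cannot be told apart here. In INA-6 sgEGFP cells its PSI was 46.2%, 45.8% and 45.6%, and in sgPOU2AF1 cells 38.1%, 34.2% and 34.9%. The groups did not overlap, and the authors' deposited table gives p = 0.0123 for the fall by 10.11 points. Without 1 of the libraries the difference ranged from -11.3 to -9.36 points, and the call was lost without control library 1, guide library 2 or guide library 3.

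In the same event entry the exon had p under 0.05 in 4 other comparisons, none reaching 10 points. A second entry of this exon, against other transcripts and at lower PSI, had p under 0.05 in 5 comparisons. One of them, MM.1S with IL-6, is not among those of the first entry, and there it rose from 1.95%, 1.77% and 1.98% to 2.77%, 2.97% and 2.74%, by 0.93 points (p = 0.000807 in the authors' deposited table). The values that follow are those of the first entry. In INA-6 it rose with IL-6 from 40.8%, 38.9% and 43.5% to 52.5%, 50.8% and 45.9%, by 8.69 points. In MM.1S sgPOU2AF1 it fell from 28.5%, 26.0% and 23.7% to 18.5%, 21.4% and 20.1%, by 6.06 points. The groups did not overlap in either, though the gap between the closest libraries was about the size of the spread within a group. From the shared controls at 23.6%, 25.1% and 23.9%, it was at 33.1%, 28.1% and 29.5% in sgSRSF1 cells, 6.04 points higher, and at 19.4%, 17.6% and 16.9% in sgHNRNPL cells, 6.21 points lower. After limma adjustment over the sgHNRNPL table its p was 0.317. Its sgPOU2AF1 change did not pass the interaction test between lines (-0.11 log2 odds, SE 0.14, limma adjusted p = 0.591).

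The acidic stalk proteins RPLP0, RPLP1 and RPLP2 recruit translation factors to the large subunit. The second exon of RPLP2, chr11:810234-810357, carries the start codon, as the sequence above shows. In MM.1S its PSI was 95.7%, 95.5% and 95.7% without IL-6 and 92.6%, 92.4% and 92.8% with IL-6. With the SRSF1 guide it went from 96.1%, 95.6% and 96.0% to 92.2%, 92.5% and 92.3%. Both falls, by 3.05 and 3.55 points, exceed the spread within groups, and the second had a limma adjusted p of 0.0250 (-0.96 log2 odds, SE 0.16). The exon was also lower in sgHNRNPL cells at 94.3%, 94.5% and 95%, by 1.33 points, and in MM.1S sgELL2 by 0.36 points. A first exon event of RPLP0 at chr12:120200832-120200891 rose with IL-6 in MM.1S from 14.3%, 14% and 12.9% to 16.8%, 16% and 16.5%, and fell in MM.1S sgPOU2AF1 from 14.3%, 14.8% and 14.5% to 12.4%, 12.2% and 11.9%.

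**Figure D4:**
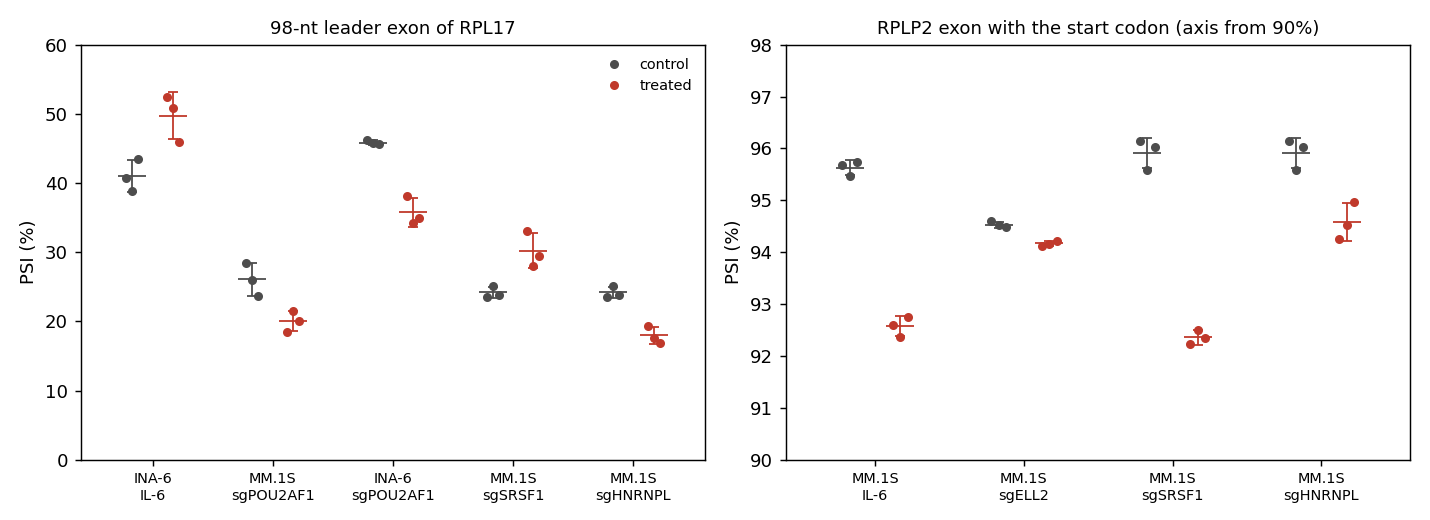
PSI (y axes, percent) of the RPL17 98-nucleotide leader exon, left, and of the RPLP2 exon with the start codon, right, in each library (points) with group mean and SD, for the comparisons in which the event entry shown had p under 0.05; the right axis starts at 90%. RPL17 falls by 10.11 points in INA-6 sgPOU2AF1 and rises by 8.69 points in INA-6 with IL-6, and RPLP2 falls by 3.05 points with IL-6 and 3.55 points with sgSRSF1 in MM.1S.

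First exon events of several large subunit genes rose in most of the comparisons in which they were listed. For RPL6, at chr12:112409411-112409586, MM.1S went from 6.44%, 7.74% and 6.70% to 13.7%, 11.1% and 10.9% with IL-6, and INA-6 from 5.37%, 6.37% and 5.28% to 10.4%, 9.95% and 9.64% with the POU2AF1 guide. It also rose with the ELL2 guide by 4.81 points in MM.1S and 2.42 points in INA-6. For RPL34, at chr4:108620601-108620712, the rises were 2.05 points in MM.1S with IL-6, 2.50 and 2.57 points with sgPOU2AF1 in the 2 lines, and 3.36 and 1.59 points with sgELL2. For RPL35A, a Diamond-Blackfan anaemia gene, they were 2.09 points in MM.1S with IL-6, 2.68 points in INA-6 sgPOU2AF1, 1.51 and 1.97 points with sgELL2 and 1.10 points with sgHNRNPL, and sgSRSF1 lowered it by 1.36 points. RPL38, known in mice for effects on the translation of particular messages, had a first exon event with high PSI that fell in 4 comparisons, by 1.34, 2.11, 0.79 and 1.35 points in MM.1S and INA-6 sgPOU2AF1 and sgELL2 in turn.

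The event of RPL8, whose product lies close to the peptidyl transferase centre, rose in all 6 comparisons in which it had p under 0.05. In sgHNRNPL cells it went from 18.9%, 17% and 18.3% to 22.6%, 21.9% and 22.6%, without overlap. The other rises ran from 0.31 points in INA-6 with IL-6 to 1.16 points in MM.1S sgELL2. RPL35 had a small splice site event that rose in 7 comparisons, by 0.06 to 0.22 points. Across the 2 INA-6 guide comparisons, and across sgSRSF1 and sgHNRNPL, the shared controls make the values partly common.

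Among introns, the 100-nucleotide intron of RPL13 at chr16:89560840-89560939 went from 1.85%, 1.81% and 1.52% to 3.29%, 3.56% and 3.65% in MM.1S with IL-6. In INA-6 it went from 0.872%, 0.748% and 0.792% to 0.975%, 1.06% and 0.985%. The groups did not overlap in either line. The change in INA-6 was smaller by 1.02 on the log2 odds scale (SE 0.11, limma interaction adjusted p = 6.3e-05), but most INA-6 values lie below the 1% at which PSI was clipped for this test, which removes their change. Clipped at 0.1% instead, the difference (INA-6 minus MM.1S) was -0.72 (limma adjusted p = 0.00115). For RPS27A, which encodes a ribosomal protein fused to ubiquitin, the intron at chr2:55232709-55232807 rose in MM.1S from 3.54%, 3.81% and 3.40% to 5.99%, 6.16% and 5.90% with IL-6 and in INA-6 from 1.99%, 2.09% and 2.03% to 2.82%, 2.79% and 2.77%. It fell from 5.28%, 5.26% and 5.29% to 4.50%, 4.45% and 4.54% in MM.1S sgPOU2AF1, and by 0.43 and 0.36 points in MM.1S sgELL2 and sgSRSF1. An intron of RPL36 at chr19:5690328-5690505 rose in 5 comparisons, by 0.63 to 1.02 points, and one of RPL27 at chr17:42998472-42998748 rose from 1.96%, 1.91% and 1.86% to 3.65%, 3.72% and 3.75% in MM.1S with IL-6.

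Small subunit genes other than RPS24 gave fewer large values. In MM.1S with IL-6 a first exon event of RPS2, chr16:1964276-1964448, fell from 95.9%, 96.3% and 96.1% to 92.8%, 92.8% and 93.6%. In sgSRSF1 cells the 92-nucleotide intron of RPS21, chr20:62388365-62388456, rose from 1.34%, 1.37% and 1.34% to 3.42%, 3.85% and 3.44%, and it had the lowest limma adjusted p of the RP events, 0.0105 (1.43 log2 odds, SE 0.15). An intron of RPS23, chr5:82275296-82276177, fell in INA-6 with IL-6 from 4.98%, 5.15% and 4.59% to 3.55%, 4.10% and 4.0%, and rose in 5 comparisons by 0.24 to 1.07 points. RPL24, a large subunit protein at the bridge between the subunits, had a 64-nucleotide exon at chr3:101682429-101682492 that went from 97.6%, 97.5% and 97.5% to 95.4%, 94.9% and 95.5% in MM.1S with IL-6. RPL39L, a paralogue of RPL39, had an exon that fell by 1.63 points in INA-6 with IL-6.

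Of the genes known to regulate their own splicing, RPS13 moved in MM.1S sgELL2. Its 49-nucleotide exon was at 48.0%, 47.5% and 49.4% in controls and at 46.5%, 45.5% and 44.9% with the guide, 2.67 points lower and without overlap. RPL3, RPL12 and RPS13 together had 8 of 27 events with p under 0.05 in INA-6 sgPOU2AF1, 8 of them higher, which is 29.6% next to 30.4% over all RP genes. In MM.1S sgELL2 they had 4 of 27, 4 of them lower, which is 14.8% next to 9.28%. In the other comparisons they had 0 to 2. The 18 Diamond-Blackfan anaemia genes had 40 events higher and 0 lower in INA-6 sgPOU2AF1, 20 and 0 in INA-6 sgELL2 and 30 and 10 in MM.1S with IL-6, next to 221 and 14, 84 and 8, and 147 and 17 over all RP genes.

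In the 2 complete tables the events could be adjusted over the whole table with limma on the log2 odds of PSI. With the SRSF1 guide 12 of 118 RP events that vary after clipping passed an adjusted p of 0.05, against 8.21% of all 50150 events. These 12 come from 3 genes: 9 are entries of RPS24, with 6 exon entries lower and 3 introns higher, 2 are entries of RPLP2, and 1 is the RPS21 intron. With 1 library left out, 1 or 2 RP events passed. With the HNRNPL guide 0 of 117 RP events passed in limma, against 0.381% of all 49622, with 9 at an unadjusted p under 0.05 and 0 by adjusting the deposited p. The lowest limma adjusted p was 0.224, for a first exon event of RPL24 that fell from 96.8%, 97.3% and 97.0% to 95.6%, 95.2% and 94.8%.

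Events recurred between comparisons. Of 450 RP events with p under 0.05 somewhere, 254 had it in 1 comparison, 94 in 2 and 102 in 3 or more, the last from 44 genes. The share in 3 or more was 22.7%, against 7.88% of the 30261 events of all genes with p under 0.05 somewhere. Shared controls raise such counts, and with the comparisons that share them counted once the shares were 18.4% and 5.56%. RP events were also listed more often in most single comparisons, as given above. In 5 or more comparisons there were 23 events of 13 genes. RPS24, RPL17 and RPS15 had at least 1 event in each of the 8 comparisons, and 1 RP gene had none. The RPS15 events were small, with a largest difference of 0.209 points.

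**Figure D5:**
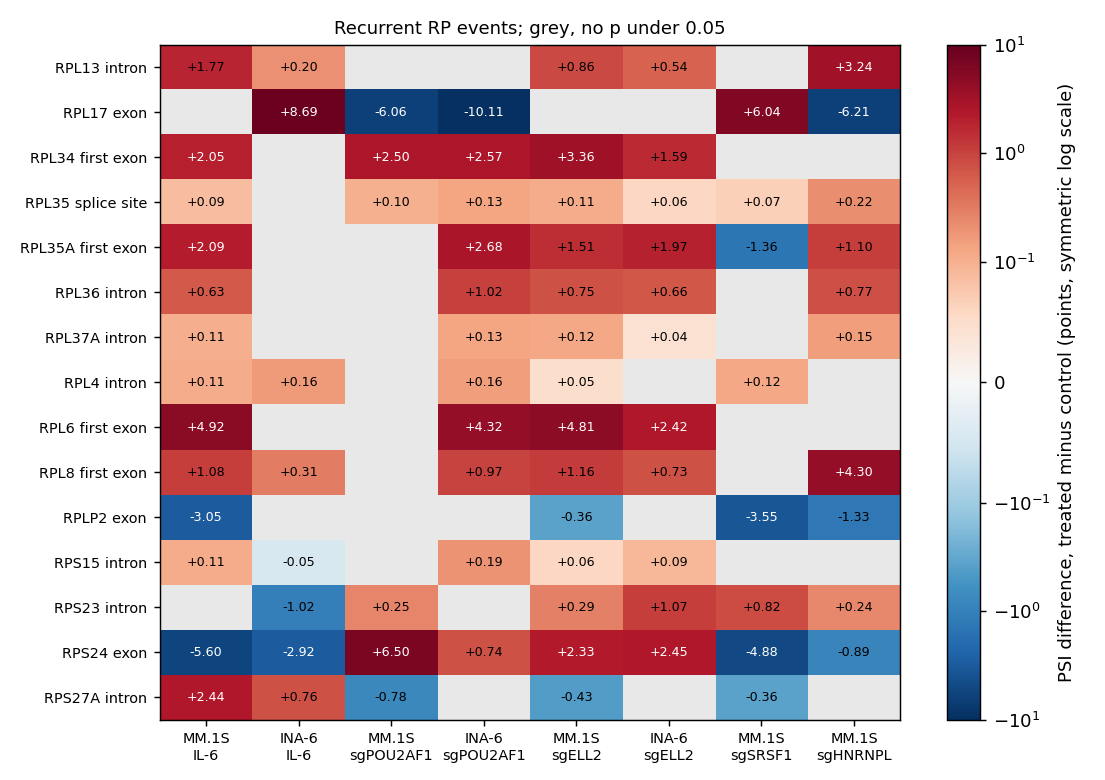
PSI difference (treated minus control, points, colour on a symmetric log scale) of 15 recurrent RP events (rows) in the 8 comparisons (columns); grey cells had no p under 0.05. RPS24 is filled in all 8 columns with 4 falls and 4 rises, and the RPL35, RPL8, RPL34 and RPL6 events rise in every filled cell.

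Whether a change differed between MM.1S and INA-6 could be tested only for events listed in both tables. These were chosen by p in MM.1S and, apart from events without a p-value, in INA-6, and so tend to have a small spread. Events whose PSI did not vary once clipped at 1% also dropped out. On untransformed PSI 35, 19 and 29 RP events could be tested for IL-6, sgPOU2AF1 and sgELL2, more than the numbers that follow. For IL-6, 14 of 19 RP events passed the limma interaction test, against 49.3% of all events tested, and 19 of 19 moved the same way in both lines. The 14 come from 6 genes, 8 of them entries of RPS24, whose 22-nucleotide exon fell less in INA-6 by 0.35 log2 odds (SE 0.09, limma adjusted p = 0.00676). For sgPOU2AF1 4 of 8 passed (background 38.8%), with 8 of 8 in the same direction, and for sgELL2 6 of 22 (background 39.6%), with 22 of 22 in the same direction. These counts of direction leave out the dropped events and were not made over all genes. Of the RP introns listed in both lines, 3 went in opposite directions with IL-6 and 1 with sgELL2. Clipping PSI at 0.1% in place of 1% kept 13 of the 14, 4 of the 4 and 3 of the 6.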

How the data were processed

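PSI values in percent, of 3 libraries per group, came from the authors' deposited tables, 1 per comparison, with differences in points as deposited scores. Alignment to GRCh38 used STAR 2.7.10b and SAMtools 1.19.2, per the submitters' processing notes; the sources used here do not name the splicing caller or its annotation. The deposited p-value was checked against the listed PSI and is unadjusted. The sgSRSF1 and sgHNRNPL tables list all events. In the other 6 every p-value given is under 0.05, so their shares use the 66516 events with a p-value in a complete MM.1S table. The 3 INA-6 tables also list events without a p-value. Of their events, 4729 of 9774 (IL-6), 7256 of 11792 (sgPOU2AF1) and 3595 of 8345 (sgELL2) had one. Clipped to 1 and 99%, PSI was put on the log2 odds scale from the deposited percentages and tested with limma 3.58.1 in R 4.3.3 with Benjamini-Hochberg adjustment; the code was tested on simulated data. Members and lists were chosen with earlier results of these data known. Named were, per comparison, up to 12 called events and the 8 next largest with groups that do not overlap, the 10 lowest limma p-values of complete tables, events with p under 0.05 in 3 or more comparisons, and up to 10 with a line difference. Columns carry no replicate numbers. Sequences are from GENCODE 29.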

Additional observations from a re-analysis of the deposited data

Results flagged for a closer look

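Several RP events passed a test for changing by a different amount in MM.1S and INA-6 under the same treatment, by the limma interaction test on the log2 odds of PSI (INA-6 minus MM.1S, adjusted p under 0.05). In these events PSI moved the same way in both lines. Under IL-6, values below 0 mark a smaller rise in INA-6: -0.68 for a first exon event of RPL26, -1.02 and -1.0 for overlapping introns of RPL13, -0.36 for an intron of RPL17 and -0.32 for the RPS27A intron. Above 0 were 8 entries of RPS24, which fell less in INA-6. They were 0.64 for the 3-nucleotide exon, 0.59 and 0.38 for entries starting at it, and 0.37 and 0.35 for entries of the 22-nucleotide exon. A splice site event of RPS12 was at 0.28.

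Under sgPOU2AF1 the RPS24 exon rose less in INA-6 (-0.88), and introns of RPL13 (0.46 and 0.35) and the first exon event of RPL34 (0.45) rose more. Under sgELL2 the values were -0.4 and -0.35 for introns of RPL8, 0.39 and 0.37 for introns of RPL36, -0.2 for a first exon event of RPSA and 0.27 for an intron of RPL13. In points the RPL36 and RPL13 introns rose less in INA-6, despite values above 0. The RPL36 rises were 0.86 and 0.66 points in INA-6 against 0.88 and 0.75 in MM.1S. For RPL13 they were 0.58 against 1.06 points. For events with PSI under 1%, clipping removes change in that line. Clipped at 0.1% instead, a choice made after seeing the data, 4 of these events no longer passed: RPS12 under IL-6 (-0.02, limma adjusted p = 0.858), and under sgELL2 both RPL8 introns (0.01 and 0.08, adjusted p = 0.951 and 0.751) and RPSA (0.31, adjusted p = 0.105), so no difference between lines is reported for them. Under IL-6 the value became smaller but still passed for RPL26 (-0.33, limma adjusted p = 0.0193), the RPL13 introns (-0.72 and -0.7), the 3-nucleotide RPS24 exon (0.51) and the splice site entry starting at it (0.53). Under sgPOU2AF1 the RPL13 introns became larger (0.89 and 0.8). The other 13 values, among them the other 6 RPS24 entries under IL-6, did not change.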

How the results depend on the processing

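At a minimum of 5 points the called RP events numbered 1 in MM.1S IL-6, 2 in INA-6 IL-6, 2 in MM.1S sgPOU2AF1, 2 in INA-6 sgPOU2AF1, 1 in sgSRSF1 and 1 in sgHNRNPL; at 20 points INA-6 sgPOU2AF1 had 0. Leaving out 1 library gave 0 to 1 called events in INA-6 IL-6, 0 to 1 in INA-6 sgPOU2AF1 and 0 to 2 in sgHNRNPL. Counted once per gene, higher RP introns numbered 46, 18, 15, 59, 10 and 25 in MM.1S IL-6, INA-6 IL-6, MM.1S and INA-6 sgPOU2AF1, and MM.1S and INA-6 sgELL2. With at least 0.5 points they numbered 22, 5, 2, 13, 8, 9, 8 and 9 in these 6, sgSRSF1 and sgHNRNPL, and MM.1S sgPOU2AF1 then had 5 lower. Without 1 library the ranges in the same order were 54 to 59, 19 to 25, 5 to 18, 120 to 145, 12 to 18, 25 to 39, 17 to 26 and 13 to 21; in the 6 selected tables listed events alone can be retested, so counts can only fall. With sgSRSF1, 12 RP events passing limma became 2 when clipped to 5 and 95%, 0 with at least 10 points, 20 with no filter on variation, 4 with trend and robust fitting and 1 to 2 without 1 library; with sgHNRNPL 0 to 2 passed without 1 library. Line differences numbered 7 for sgPOU2AF1 when clipped at 0.1% from either end, and 3 for sgELL2 on untransformed PSI. The cause was not tested. The 0.1% clip, the intron counts and their alternatives were chosen after seeing the data. Differences of the 423 named event and comparison pairs, recomputed 1269 times, reversed 0 times. No paired analysis was possible because the value columns carry no replicate numbers. Depth is unknown, which limits every value near 0%.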

Other observations

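Groups of MM.1S cells that all had IL-6 differed at RP events before any guide against a human gene. The first exon event of RPL34 was at 8.48% ± 0.62 (SD, n = 3) in MM.1S with IL-6, at 8.21% ± 0.49 and 9.40% ± 0.39 in the sgEGFP controls of sgPOU2AF1 and sgELL2, and at 21.0% ± 0.38 in those of sgSRSF1 and sgHNRNPL. The RPL6 event was at 11.9% ± 1.6 and 10.6% ± 0.45 in MM.1S with IL-6 and the sgELL2 controls and at 34.8% ± 3.1 in the sgSRSF1 and sgHNRNPL controls. The RPL13 100-nucleotide intron was at 3.50% ± 0.19, 3.67% ± 0.30 and 19.5% ± 1.2 in the same 3 groups. The RPS27A intron was lower there, at 6.02% ± 0.13, 5.28% ± 0.01 and 5.84% ± 0.10 against 0.991% ± 0.041. In the same groups the RPS24 22-nucleotide exon was at 6.48% ± 0.10, 6.93% ± 0.18 and 7.56% ± 0.39 against 10.5% ± 0.08. Over RP introns with a value in both tables, lower was the more frequent direction. The tables of the 3 other groups list only introns with p under 0.05. In MM.1S with IL-6, 97 of 98 such RP introns were higher with IL-6. For that group the choice of introns by itself favours lower values in the sgSRSF1 and sgHNRNPL controls. In the sgSRSF1 and sgHNRNPL controls 17 of 73 were higher than in MM.1S with IL-6, 10 of 28 higher than in the sgPOU2AF1 controls and 5 of 30 higher than in the sgELL2 controls, next to 500 of 982, 362 of 943 and 209 of 616 over all introns. Of RP first exon events, 19 of 23, 3 of 4 and 9 of 12 were higher, next to 317 of 528, 149 of 279 and 121 of 210 over all first exon events. These gaps exceed most treatment differences reported above for the same events. They are levels from separate tables, the provider of each library is not stated, and their source was not tested.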
